A study of Mus musculus with 9 samples.

Results

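The transcripts described here encode 10 secreted glycoproteins of the extracellular matrix: *Fn1*, *Tnc*, *Postn*, *Sparc*, *Thbs1*, *Thbs2*, *Vcan*, *Fbn1*, *Fbln2* and *Spp1*. They are 10 of the 55228 genes in a table of RNA-seq counts from HC11 cells, a mouse mammary epithelial line derived from a BALB/C mouse. The genes were chosen by name, with earlier results of these data known. *Fn1* and *Tnc* were chosen also because they were among the most counted genes of single lines. Levels and fold changes of *Fn1* and *Tnc* are therefore given as a description, without a test. Of the other 8 genes, 7 passed the filter on low counts and were each tested between the lines. Their p-values were adjusted over all 15253 genes that passed.

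The study compared the uncloned parental line (*WT*) with a pair of lines in which *Vangl2*, which encodes a membrane protein of planar cell polarity, was targeted with CRISPR/Cas9. Each line, *KD1* and *KD2*, was made with its own guide and a repair template carrying stop codons, and was grown from a single colony. The labels call both lines *Vangl2* knockouts, and the study calls them knockdowns. By immunoblot the study found hardly any VANGL2 protein in *KD1* and strongly reduced protein in *KD2*. All 9 cultures, 3 of each line, were undifferentiated and untreated, in RPMI-1640 with 10% FBS, 5 μg/mL insulin and 10 ng/mL EGF. The study's methods place harvest shortly before full confluence, and its results call the cells confluent. Because each line is 1 clone and its parent is not cloned, what cloning changed and what the edit changed cannot be told apart. The labels do not say whether replicates were separate cultures from the start, so p-values measure only the spread between these samples.

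Fibronectin is a cell-binding scaffold that cells assemble into fibrils through integrins, and other matrix proteins are built onto those fibrils. Tenascin C, periostin, SPARC, the thrombospondins and osteopontin are matricellular proteins, which act on cell adhesion and signalling more than they bear load. Versican is a hyaluronan-binding proteoglycan, fibrillin 1 builds microfibrils, and fibulin 2 bridges fibronectin, basement membrane and elastic fibres. In the mammary gland most fibronectin and tenascin surrounds the epithelium, where they are known for their parts in branching, involution and tumours.

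Sequence upstream of the start site is shown for the 3 genes whose levels set the lines apart and for which a RefSeq start lies within a few bases of the annotated 5' end: *Postn*, *Tnc* and *Spp1*. RefSeq promoter entries were found for 8 of the 10 genes, all except *Fn1* and *Thbs1*. Each sequence is the 250 bases before the start in GRCm38.p6, written 5' to 3' on the strand of the gene. The stretches printed lie at chr3:54360857-54361106 (plus strand) for *Postn*, chr4:64047016-64047265 (minus strand) for *Tnc* and chr5:104434861-104435110 (plus strand) for *Spp1*. Each of the 3 genes also has another RefSeq start, whose sequence is not shown. Capitals mark every match, on either strand, to any of 7 motifs searched.
Postn: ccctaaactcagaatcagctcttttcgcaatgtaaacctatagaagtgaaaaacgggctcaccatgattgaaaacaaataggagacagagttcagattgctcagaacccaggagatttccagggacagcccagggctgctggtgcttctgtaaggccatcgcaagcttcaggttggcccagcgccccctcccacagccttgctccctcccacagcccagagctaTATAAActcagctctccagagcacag
Tnc: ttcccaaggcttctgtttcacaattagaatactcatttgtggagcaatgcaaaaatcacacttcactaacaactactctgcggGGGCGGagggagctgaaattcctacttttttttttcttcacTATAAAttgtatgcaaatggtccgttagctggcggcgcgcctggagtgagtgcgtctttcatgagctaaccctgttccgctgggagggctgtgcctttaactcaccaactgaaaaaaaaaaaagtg
Spp1: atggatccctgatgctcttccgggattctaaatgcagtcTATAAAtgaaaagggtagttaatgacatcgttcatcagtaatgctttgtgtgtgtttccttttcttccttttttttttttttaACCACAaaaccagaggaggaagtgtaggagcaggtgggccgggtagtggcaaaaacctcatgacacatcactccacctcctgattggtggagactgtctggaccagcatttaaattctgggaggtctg
The capitals in *Postn* are a TATA match (TATAAA) from 26 to 21 bases before the start. In *Tnc* a GC box (GGGCGG) lies 167 to 162 bases and a TATA match 126 to 121 bases before it. In *Spp1* a TATA match lies 211 to 206 bases before the start, and a RUNX match (TGTGGT, here on the other strand as ACCACA) 128 to 123 bases before it. Of the 32851 mouse promoters searched over the same length, 12.4% held TATAAA, 32.7% GGGCGG and 14.0% TGTGGT. None of the 3 stretches held the AP-1 (TGAGTCA), CRE (TGACGTCA), STAT (TTCNNNGAA) or E-box (CACGTG) letters, which were found in 4.46%, 1.55%, 7.02% and 6.02% of promoters. A match describes the letters only.

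The libraries held 19231428 to 28360592 counts. *Vangl2* was counted 66, 99 and 86 times in *WT*, 75, 48 and 69 times in *KD1* and 90, 118 and 90 times in *KD2*. Against *WT* it changed by -0.63 on the log2 scale in *KD1* (Benjamini-Hochberg adjusted p = 0.0058, quasi-likelihood test of edgeR) and by 0.05 in *KD2* (adjusted p = 0.81, edgeR), so its RNA did not check the label of *KD2*. Replicates differed most where *WT* replicate 1 or *KD2* replicate 3 was one of the pair: the chi-square per degree of freedom over genes was 11.9 to 24.9 for those 4 pairs and 1.42 to 3.67 for the other 5. Fold changes without these libraries are given with each gene tested and with *Fn1* and *Tnc*. The 8 mammary epithelial markers were detected in every line. In CPM (counts per 1e6 of the scaled library) their sum ran from 5068 to 5658 for *WT* cultures. It ran from 5859.5 to 6015 for *KD1* and from 3047 to 3736 for *KD2*. Most of the sum was *Krt5* (mean 2117 CPM in *WT*, 1088 in *KD2*) and *Krt14* (1527 and 819). *Epcam*, *Cdh1* and *Trp63* were also lower in *KD2* than in *WT*. *Krt8* was higher there (268 beside 158 CPM), and *Krt18* (136 beside 125) and *Krt7* (73.0 beside 70.8) were not lower. The 10 fibroblast markers, 7 of them above 3 counts in any culture, summed to between 17.0 and 23.1 CPM for *WT*, 8.11 and 10.2 for *KD1* and 90.4 and 100.3 for *KD2*, where *Pdgfrb* alone had a mean of 66.8 CPM. *Pdgfra* had 16.4 CPM there beside 7.96 CPM in *WT* and 8.40 CPM in *KD1*. *Col1a1* had 7.03, 0.571 and 4.38 CPM and *Col1a2* 1.17, 0 and 3.09 CPM in *WT*, *KD1* and *KD2*, while *Thy1*, *Dcn* and *Lum* had at most 6 counts in any culture and *Dpt* 0. Endothelial and leukocyte markers each summed to at most 8.65 CPM in any culture, with *Emcn*, *Adgre1* and *Tyrobp* at 0 and *Lyz2* at 0 to 1 counts in *WT* and *KD1* and 27 to 41 in *KD2*, and adipocyte markers to at most 0.826 CPM. The part of these marker differences in the results below was not tested. In bulk RNA, fewer cells of a kind and less RNA per cell cannot be told apart.

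*Fn1*, for fibronectin itself, was lowest in *KD1* and highest in *KD2*. It lies on the minus strand of chromosome 1 (71585520 to 71653200, GRCm38). Its level was 3473, 3102 and 2923 CPM in *WT*, 456, 453 and 462 CPM in *KD1* and 8694, 8293 and 9303 CPM in *KD2*. No culture of one line overlapped another line. *WT* had a mean of 3166 ± 281 CPM (SD, n = 3), *KD1* of 457 ± 4.92 and *KD2* of 8763 ± 508. *Fn1* was thus 6.93-fold lower than *WT* in *KD1* (log2 fold change -2.79) and 2.77-fold higher in *KD2* (1.47), a distance of 19.2-fold between the lines. It was the most counted gene in all 3 *KD2* cultures and ranked 1, 2 and 3 in *WT*, but 292 to 317 in *KD1*. Without *WT* replicate 1 the log2 fold changes were -2.72 and 1.54, and without *KD2* replicate 3 the value for *KD2* was 1.45. *Apol7d* on the other strand, with 5 to 17 counts, overlaps its exons, and 2.51% of its 50-base windows also occur in other genes.

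*Tnc*, for the six-armed glycoprotein tenascin C that loosens adhesion to fibronectin, followed another order. The gene lies on the minus strand of chromosome 4 (63959785 to 64047015). Its level was 1020.2, 1142 and 1022 CPM in *WT*, 3102, 3088 and 3082 CPM in *KD1* and 1113, 1117 and 1149 CPM in *KD2*. Every *KD1* culture lay above every other culture, and the *WT* and *KD2* cultures overlapped. *Tnc* was 2.91-fold higher in *KD1* than in *WT* (log2 fold change 1.54), and the log2 fold change of *KD2* was 0.09. Between the lines (*KD2* against *KD1*) it was -1.46, or 2.74-fold lower in *KD2*. Leaving out *WT* replicate 1 gave 1.51 and 0.05 against *WT*, and without *KD2* replicate 3 the value of *KD2* against *WT* was 0.10. It ranked 1, 2 and 1 among all genes in *KD1*, 38 to 51 in *WT* and 30 to 32 in *KD2*. Its exons overlap those of *8030451A03Rik* on the other strand, which had 51 to 101 counts in *WT*, 467 to 583 in *KD1* and 107 to 166 in *KD2*. Whether counting used strand is not given in the sources used here, so reads of the shared bases, 1.04% of the 50-base windows of *Tnc*, cannot be assigned.

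**Figure D1:**
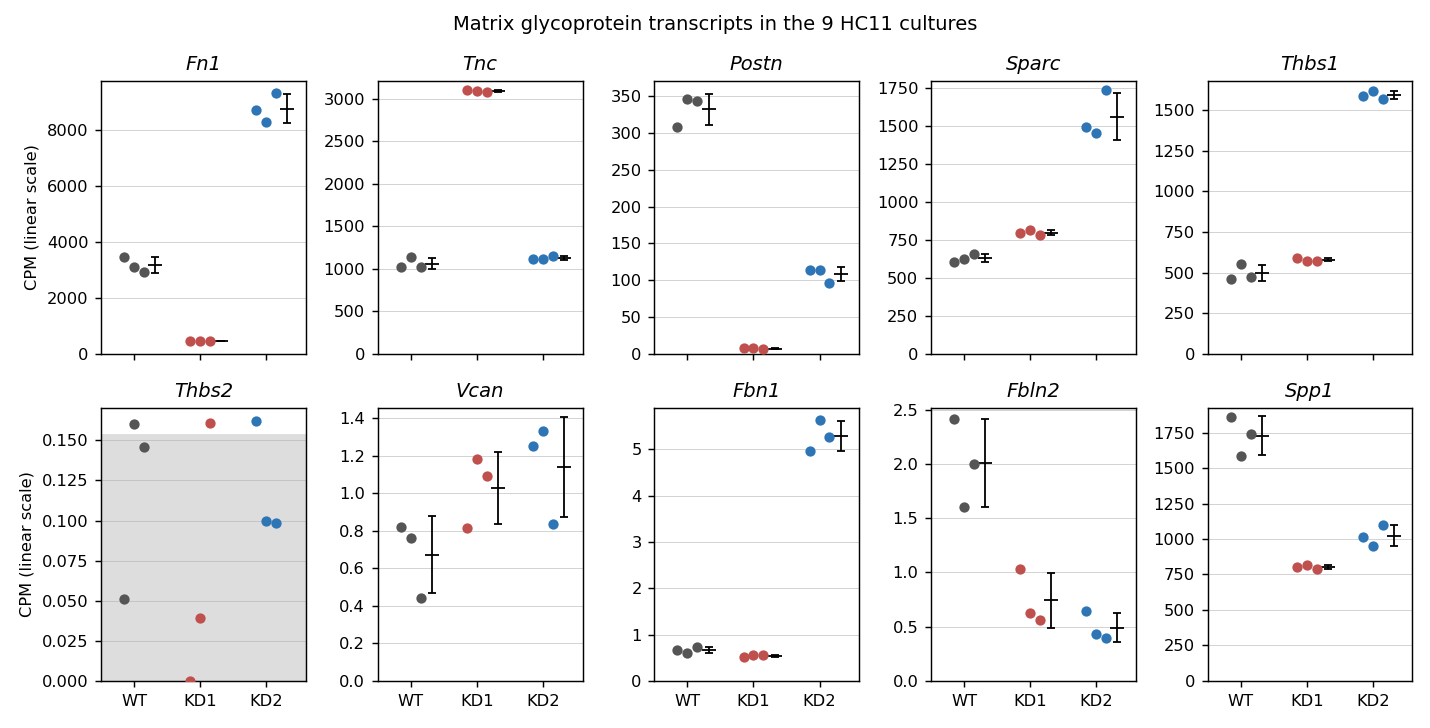
Levels of the 10 genes in CPM on linear axes from 0, 1 point per culture, with bars at the mean ± SD of 3 cultures in all panels except *Thbs2*, where the grey band marks levels up to the highest floor of 3 counts (0.154 CPM). *Fn1* lies lowest in *KD1* (457 CPM) and highest in *KD2* (8763 CPM), *Tnc* stands out in *KD1* (3091 CPM), and the scales differ between panels.

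Within a library the ratio of *Fn1* to *Tnc* counts does not depend on how libraries are scaled. *Fn1* had 2.99 ± 0.359 counts per *Tnc* count in *WT* (SD, n = 3), 0.148 ± 0.00173 in *KD1* and 7.78 ± 0.331 in *KD2*. *WT* and *KD2* therefore held more *Fn1* than *Tnc* counts and *KD1* held fewer. The 10 genes together took 0.725 ± 0.0268% of all counts in *WT*, 0.555 ± 0.00404% in *KD1* and 1.50 ± 0.0737% in *KD2*. Of these, *Fn1* and *Tnc* made up 0.413%, 0.343% and 1.04% of all counts.

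**Figure D2:**
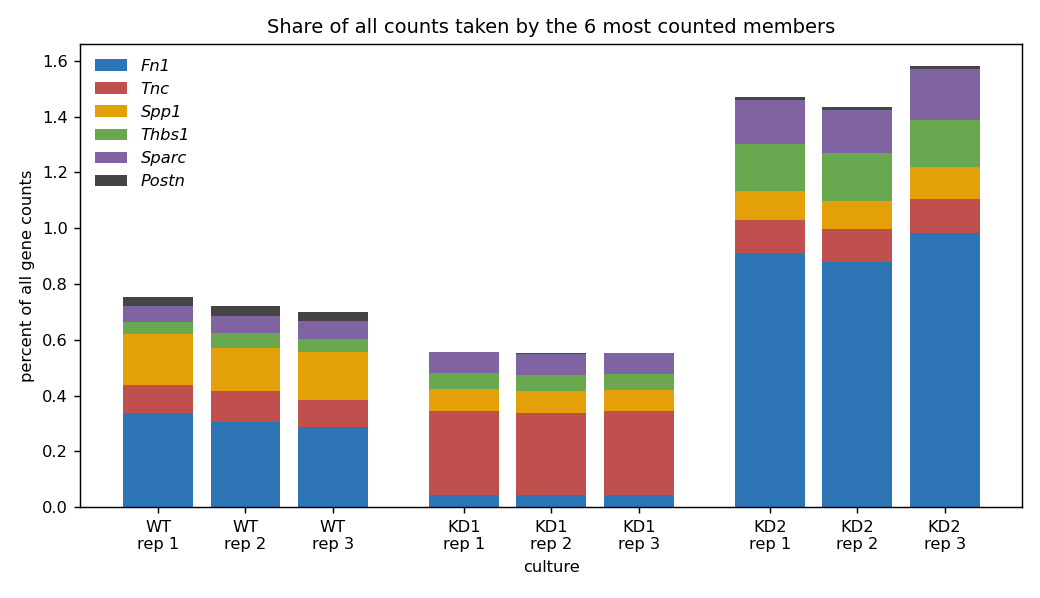
Percent of all counts taken by 6 of the genes in each of the 9 cultures, stacked on a linear axis from 0. *Fn1* fills most of the *KD2* bars (0.924% of counts on average) and little of the *KD1* bars (0.0442%), where *Tnc* takes 0.299%.

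*Postn*, which encodes periostin, a partner of both fibronectin and tenascin C in the matrix, fell in both lines. It lies on the plus strand of chromosome 3 (54361109 to 54391037), and its upstream sequence is printed above. Its level was 308, 346 and 343 CPM in *WT*, 7.35, 7.47 and 6.25 CPM in *KD1* and 114, 114 and 96.9 CPM in *KD2*. The 3 lines did not overlap. The log2 fold change was -5.56 in *KD1* (SE 0.0997, adjusted p = 3.1e-14, edgeR), or 47.3-fold lower. In *KD2* it was -1.62 (SE 0.0786, adjusted p = 7.6e-10, edgeR), or 3.07-fold lower. The lines differed by 3.95 (*KD2* against *KD1*, SE 0.0964, adjusted p = 2.4e-13, edgeR). These became -5.61 and -1.67 against *WT* without *WT* replicate 1, and -1.52 in *KD2* without its replicate 3. Counts of *Tnc* per count of *Postn* were 3.20 in *WT*, 443 in *KD1* and 10.5 in *KD2*.

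*Spp1*, for osteopontin, a phosphoprotein of bone and milk that binds integrins and CD44, also fell in both lines. The gene lies on the plus strand of chromosome 5 (104435118 to 104441050). Its level was 1862, 1585 and 1741 CPM in *WT*, 799.8, 814 and 789.8 CPM in *KD1* and 1017, 952 and 1099.5 CPM in *KD2*. Every *WT* culture lay above every *KD* culture, and every *KD2* culture above every *KD1* culture. The log2 fold change was -1.11 in *KD1* (SE 0.0671, adjusted p = 5.6e-09, edgeR) and -0.76 in *KD2* (SE 0.0667, adjusted p = 2.5e-07, edgeR). The second value did not reach the 2-fold limit. *KD2* was higher than *KD1* by 0.35 (SE 0.0665, adjusted p = 3.1e-04, edgeR). Without *WT* replicate 1 the values against *WT* were -1.05 and -0.71, and without *KD2* replicate 3 that of *KD2* was -0.79. A same-strand gene, *Gm42793*, shares 11.6% of the 50-base windows of *Spp1* and had 14 to 78 counts.

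*Sparc*, for a collagen- and calcium-binding protein also called osteonectin, rose in both lines and more in *KD2*. It lies on the minus strand of chromosome 11 (55394500 to 55423183). Its level was 604, 627 and 658 CPM in *WT*, 793, 815 and 783 CPM in *KD1* and 1495, 1451 and 1739 CPM in *KD2*. The lines did not overlap, and *KD2* replicate 3 was the highest culture. The log2 fold change was 0.34 in *KD1* (SE 0.0667, adjusted p = 6.1e-04, edgeR) and 1.31 in *KD2* (SE 0.0676, adjusted p = 1.3e-09, edgeR). Between the lines it was 0.97 (SE 0.067, adjusted p = 1.6e-08, edgeR), just short of the 2-fold limit. Without *WT* replicate 1 the values against *WT* were 0.31 and 1.28. Without *KD2* replicate 3 they were 1.25 against *WT* and 0.89 between the lines.

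*Thbs1*, for thrombospondin 1, which activates latent TGF-beta and inhibits vessel growth, rose mainly in *KD2*. The gene lies on the plus strand of chromosome 2 (118111876 to 118127133). Its level was 460.1, 551 and 474 CPM in *WT*, 592, 574 and 573 CPM in *KD1* and 1589.5, 1621 and 1568 CPM in *KD2*. Here too the lines did not overlap, although the lowest *KD1* culture lay only a little above *WT* replicate 2. The log2 fold change was 0.23 in *KD1* (SE 0.0641, adjusted p = 0.0078, edgeR) and 1.69 in *KD2* (SE 0.0656, adjusted p = 9.5e-11, edgeR). Between the lines it was 1.46 (SE 0.0651, adjusted p = 1.5e-10, edgeR). Without *WT* replicate 1 the values against *WT* were 0.18 and 1.63, and without *KD2* replicate 3 that of *KD2* was 1.72. *Gm29233* on the other strand shares 1.89% of the 50-base windows and had 0 to 3 counts. There were 0.787 *Thbs1* counts per *Sparc* count in *WT*, 0.728 in *KD1* and 1.03 in *KD2*, and every *KD2* culture (0.902 to 1.12) lay above all the others (0.705 to 0.879).

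*Thbs2*, the paralog encoding thrombospondin 2 (chromosome 17, minus strand, 14665500 to 14694235), was at the limit of what these libraries show. It had 1, 4 and 3 counts in *WT*, 0, 1 and 4 in *KD1* and 4, 3 and 2 in *KD2*. A floor of 3 counts corresponds to 0.0999 to 0.154 CPM, counting error only, since reads had no molecular identifiers. It did not pass the filter, and a difference between lines was not detectable at this depth.

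The structural genes were counted far less. *Fbn1*, for the microfibril protein fibrillin 1, lies on the minus strand of chromosome 2 (125300594 to 125507993). Its level was 0.666, 0.600 and 0.732 CPM in *WT*, 0.517, 0.550 and 0.565 CPM in *KD1* and 4.97, 5.63 and 5.26 CPM in *KD2*. The *KD2* cultures, with 107 to 169 counts, lay above all the others, with 13 to 15. *Fbn1* rose by 2.99 in *KD2* (log2, SE 0.17, adjusted p = 3.5e-09, edgeR), or 7.94-fold, while *KD1* differed from *WT* by -0.28 (SE 0.241, adjusted p = 0.45, edgeR). Between the lines the value was 3.27 (SE 0.17, adjusted p = 7.6e-10, edgeR). It was 2.99 in *KD2* without *WT* replicate 1 and 3.02 without *KD2* replicate 3. *Gm9913* on the other strand shares 19.7% of its 50-base windows and had 0 counts in every culture.

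*Fbln2*, for fibulin 2, fell in both lines from a low level. It lies on the plus strand of chromosome 6 (91212455 to 91272540). Its level was 2.41, 1.60 and 2.00 CPM in *WT*, 1.03, 0.629 and 0.565 CPM in *KD1* and 0.647, 0.433 and 0.394 CPM in *KD2*, which are 40 to 47, 14 to 28 and 8 to 16 counts. Both lines lay below every *WT* culture and overlapped each other. The log2 fold change was -1.40 in *KD1* (SE 0.264, adjusted p = 4.3e-04, edgeR) and -2.00 in *KD2* (SE 0.287, adjusted p = 3.1e-05, edgeR). The difference between the lines was -0.60 (SE 0.331, adjusted p = 0.13, edgeR). Without *WT* replicate 1 the values against *WT* were -1.25 and -1.85, and without *KD2* replicate 3 that of *KD2* was -1.86.

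*Vcan*, for versican, lies on the minus strand of chromosome 13 (89655312 to 89742509). Its level was 0.819, 0.760 and 0.439 CPM in *WT*, 0.812, 1.18 and 1.09 CPM in *KD1* and 1.25, 1.33 and 0.836 CPM in *KD2*, from 9 to 40 counts. The *KD2* cultures lay just above *WT*, and the *KD1* cultures overlapped both. Its log2 fold change was 0.59 in *KD1* (SE 0.29, adjusted p = 0.096, edgeR) and 0.78 in *KD2* (SE 0.285, adjusted p = 0.027, edgeR). The second adjusted p rose to 0.10 without *WT* replicate 3, 0.072 without *KD2* replicate 1, 0.10 without *KD2* replicate 2 and 0.096 with DESeq2. Leaving out *WT* replicate 1 gave a log2 fold change of 0.73 for *KD1* and of 0.91 for *KD2* (adjusted p = 0.027, edgeR). Without *KD2* replicate 3 that of *KD2* was 0.96 (adjusted p = 0.0064, edgeR). Genes of chromosome 13 had a median log2 fold change of -0.66 in *KD2* (590 genes), against 0.01 for all genes. The other chromosomes that carry one of the 10 genes had medians from -0.20 to 0.28 in *KD2* and from -0.16 to 0.15 in *KD1*. Genes within 2 Mb had a median of -0.64 around *Vcan* in *KD2* (9 genes) and of 0.33 around *Sparc* in *KD1* (32 genes), beside 0.34 for *Sparc* itself. Around *Fn1* the median was 0.64 in *KD2* against *KD1* (15 genes). Not every neighbourhood followed its gene. In *KD2* against *KD1* the median around *Sparc* was -0.32, beside 0.97 for *Sparc* itself. Around *Vcan* the medians were -0.47 in *KD1* and -0.64 in *KD2*, beside 0.59 and 0.78 for *Vcan* itself. The part of these regional values in the results was not tested.

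**Figure D3:**
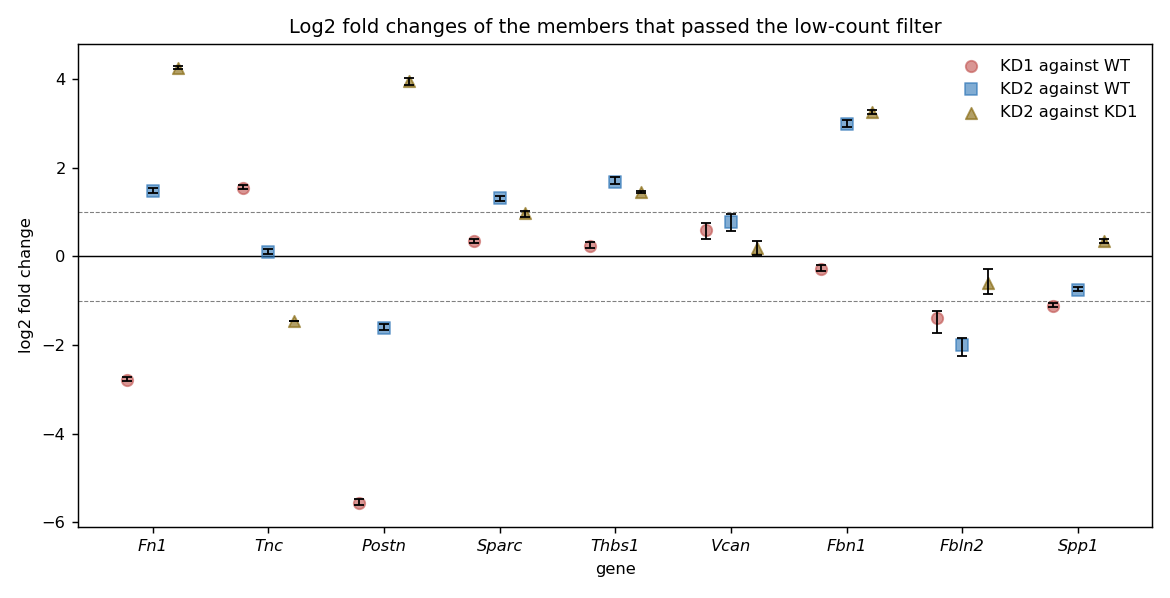
Log2 fold changes of the 9 genes that passed the low-count filter, with black bars spanning the values when each of the 9 cultures was left out in turn and dashed lines at the 2-fold limits. *Fn1*, *Postn* and *Fbn1* differ most between *KD2* and *KD1* (4.26, 3.95 and 3.27), and *Tnc* lies near 0 in *KD2* against *WT* (0.09).

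A gene was called when its adjusted p was under 0.05 and its log2 fold change beyond 1 in either direction. Among the 7 tested genes, *KD1* against *WT* called 0 higher and 3 lower (*Postn*, *Fbln2* and *Spp1*), where 16.8% of all 15253 genes tested were called, 9.34% higher and 7.49% lower. *KD2* against *WT* called 3 higher (*Sparc*, *Thbs1* and *Fbn1*) and 2 lower (*Postn* and *Fbln2*), beside 21.2% of all genes, 14.5% higher and 6.71% lower. *KD2* against *KD1* called 3 higher (*Postn*, *Thbs1* and *Fbn1*) and 0 lower, beside 23.3% of all genes, 14.7% higher and 8.58% lower. By adjusted p alone 5, 7 and 5 of the 7 passed in these 3 comparisons, and 56.9%, 67.2% and 67.8% of all genes did. Cultures did not overlap for 6, 7 and 5 of the 7, and for 68.8%, 67.9% and 71.6% of all genes, so counts of that kind do not set these genes apart. Both *KD* comparisons share the *WT* cultures.

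Levels of different genes were compared per kilobase of exon, taken as the union of all annotated exons of a gene. That union can be longer than any single transcript, so the order also depends on the annotation. In *WT* the order of mean CPM per kilobase was *Spp1* (1049), *Fn1* (271), *Sparc* (166), *Tnc* (137), *Thbs1* (81.5), *Postn* (38.2) and *Fbln2* (0.314), followed by *Fbn1* (0.0549) and *Vcan* (0.0465), whose cultures overlapped, and *Thbs2*. *KD1* kept *Spp1* first (486), with *Tnc* next (398), then *Sparc* (210.3) and *Thbs1* (95.4), and *Fn1* (39.1) only before *Postn* (0.807) and the genes counted least. In *KD2* *Fn1* came first (750.0) and *Spp1* next (621), then *Sparc* (412), *Thbs1* (262), *Tnc* (145) and *Postn* (12.5). There *Fbn1* (0.436) stood above *Vcan* (0.0788) and *Fbln2* (0.0771), whose cultures overlapped. The other neighbours in these orders did not overlap in their cultures. *Spp1*, the shortest of the genes in exon length, was thus first or next to first in each line, and *Tnc* stood above *Fn1* in *KD1* alone of the 3 lines.

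The genes whose log2 CPM followed *Fn1* most closely over the 9 cultures, each centred on its own mean, were *Clmn*, *Lpar1* and *Sorbs2*, with root mean square differences of 0.101, 0.217 and 0.226 among 11613 genes searched. *Clmn* had 24.7, 3.50 and 66.4 CPM in *WT*, *KD1* and *KD2*. Those nearest to *Tnc* were *Car5b*, *Slc22a4* and *Tmem50b*, with differences of 0.0456, 0.0846 and 0.0897. *Car5b* had 21.7, 64.4 and 23.9 CPM. These are descriptions of likeness over 9 cultures of 3 lines.

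Lists of 117 related genes, in 5 groups, were described beside the 10. Of these, 75 passed the filter. *KD1* called 16 higher and 15 lower of the 75 (41.3%, median log2 fold change 0.16), *KD2* called 33 higher and 6 lower (52.0%, median 0.80), and *KD2* against *KD1* called 35 higher and 11 lower (61.3%, median 0.89). Of all genes tested 16.8%, 21.2% and 23.3% were called in these comparisons, with 9.34% higher and 7.49% lower in the first, 14.5% and 6.71% in the next and 14.7% and 8.58% in the last. The median over all genes tested was -0.03, 0.01 and 0.02. With genes at or under 3 counts in a line set to their bound, the *KD1* median was 0.14 and the others did not move. Part of these calls came from genes with few counts in some culture. With at least 10 counts required in every culture, 53 of the 75 were left, and 19, 21 and 28 were called. The share of all genes called under that filter is not given. The shares by group below use the main filter.

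Other matrix glycoproteins, such as fibulins and CCN proteins, gave 21 tested genes, of which *KD1* called 4 higher and 5 lower, and *KD2* called 12 and 3, or 42.9% and 71.4% beside 16.8% and 21.2% of all genes. *Fbln5*, for the elastic fibre protein fibulin 5, had a mean of 64.6 ± 2.06 CPM for *WT* (SD, n = 3), of 1.37 ± 0.12 for *KD1* and of 217 ± 4.50 for *KD2*. *Ccn1*, for a matricellular integrin ligand, rose by 1.60 in *KD1* (log2, SE 0.0782, adjusted p = 5.8e-10, edgeR). Its mean was 66.8 ± 7.84 CPM in *WT*, 202 ± 5.06 in *KD1* and 246 ± 11.6 in *KD2*, so its level was not particular to *KD1*. *Ccn5* had at most 3 counts in *KD1* and 47.1 ± 5.65 CPM in *KD2*, at least 404-fold higher. *Tgfbi*, a relative of periostin, fell by 5.94 in *KD2* on the log2 scale, from 14.2 ± 3.42 to 0.243 ± 0.135 CPM (SE 0.282, adjusted p = 6.1e-10, edgeR).

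The 7 tested proteoglycans, relatives of versican and small leucine-rich proteins, included 0 called higher and 3 lower for *KD1*, and 4 and 1 for *KD2*, again 42.9% and 71.4% beside 16.8% and 21.2% of all genes. *Acan*, for the hyaluronan-binding aggrecan, had a mean of 162 ± 28.2 CPM for *WT* (SD, n = 3), of 0.425 ± 0.135 for *KD1* and of 71.0 ± 1.38 for *KD2*. Against *WT* the log2 fold changes were -8.55 in *KD1* (SE 0.185, adjusted p = 1.4e-13, edgeR) and -1.19 in *KD2* (SE 0.103, adjusted p = 2.0e-07, edgeR). *Prelp*, for a collagen-binding leucine-rich protein, had 1.54 ± 0.409 CPM in *WT*, at most 3 counts in *KD1* and 46.8 ± 0.704 CPM in *KD2*. *KD1* was at least 13.2-fold lower than *WT* and at least 401-fold lower than *KD2*.

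Among 15 tested receptors of these proteins, integrins, CD44 and others, *KD1* called 3 in each direction, or 6 of 15, beside 16.8% of all genes. *KD2* called 2 higher and 1 lower, beside 14.5% and 6.71% of all genes, and *KD2* against *KD1* called 8, or 53.3% beside 23.3%. *Itgb3*, the beta 3 chain of an integrin that binds fibronectin, periostin and osteopontin, fell by 2.54 in *KD1* on the log2 scale (SE 0.154, adjusted p = 5.8e-09, edgeR), to 4.36 ± 0.403 CPM (SD, n = 3) from 25.3 ± 5.80 CPM, and rose by 1.24 in *KD2* (SE 0.123, adjusted p = 8.2e-07, edgeR). *Itgb6*, whose integrin binds fibronectin and latent TGF-beta, had its highest level in *KD1*, with 7.55 ± 0.653 CPM in *WT*, 27.6 ± 0.563 in *KD1* and 4.54 ± 0.1 in *KD2*. *Cd44*, the hyaluronan and osteopontin receptor, rose by 1.41 in *KD1* (log2, SE 0.0642, adjusted p = 2.7e-10, edgeR), from 437 ± 8.10 to 1157 ± 13.4 CPM.

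Of 19 enzymes of matrix assembly, crosslinking and hyaluronan turnover, *KD1* called 3 higher and 2 lower, and *KD2* called 9 and 0, or 26.3% and 47.4% beside 16.8% and 21.2% of all genes. *Loxl3*, a lysyl oxidase, had a mean of 63.7 ± 10.9 CPM for *WT* (SD, n = 3), of 14.5 ± 0.121 for *KD1* and of 210.1 ± 25.6 for *KD2*. *Tgm2*, a transglutaminase that crosslinks fibronectin, rose by 2.64 in *KD2* (log2, SE 0.0903, adjusted p = 3.1e-11, edgeR). *Cemip*, which degrades hyaluronan, rose by 3.63 in *KD1* (SE 0.197, adjusted p = 1.8e-09, edgeR) and by 2.57 in *KD2* (SE 0.216, adjusted p = 1.6e-07, edgeR).

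The 13 tested proteases included 6 called higher and 2 lower for *KD1*, and 6 and 1 for *KD2*, or 61.5% and 53.8% beside 16.8% and 21.2% of all genes. *Plau*, for the urokinase that activates plasminogen, had a mean of 52.8 ± 4.10 CPM for *WT* (SD, n = 3), of 332 ± 6.81 for *KD1* and of 23.2 ± 2.26 for *KD2*. Against *WT* it changed on the log2 scale by 2.65 in *KD1* (SE 0.0772, adjusted p = 2.4e-12, edgeR) and -1.19 in *KD2* (SE 0.0799, adjusted p = 1.7e-08, edgeR). *Adamts4*, which cleaves aggrecan and versican, rose by 2.14 in *KD1* (SE 0.175, adjusted p = 1.4e-07, edgeR) and by 3.43 in *KD2* (SE 0.159, adjusted p = 4.9e-10, edgeR). *Mmp2*, a gelatinase, fell by 1.99 in *KD1* on the log2 scale (SE 0.132, adjusted p = 1.5e-08, edgeR) and had 16.1 CPM in *KD2* beside 15.9 CPM in *WT*.

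**Figure D4:**
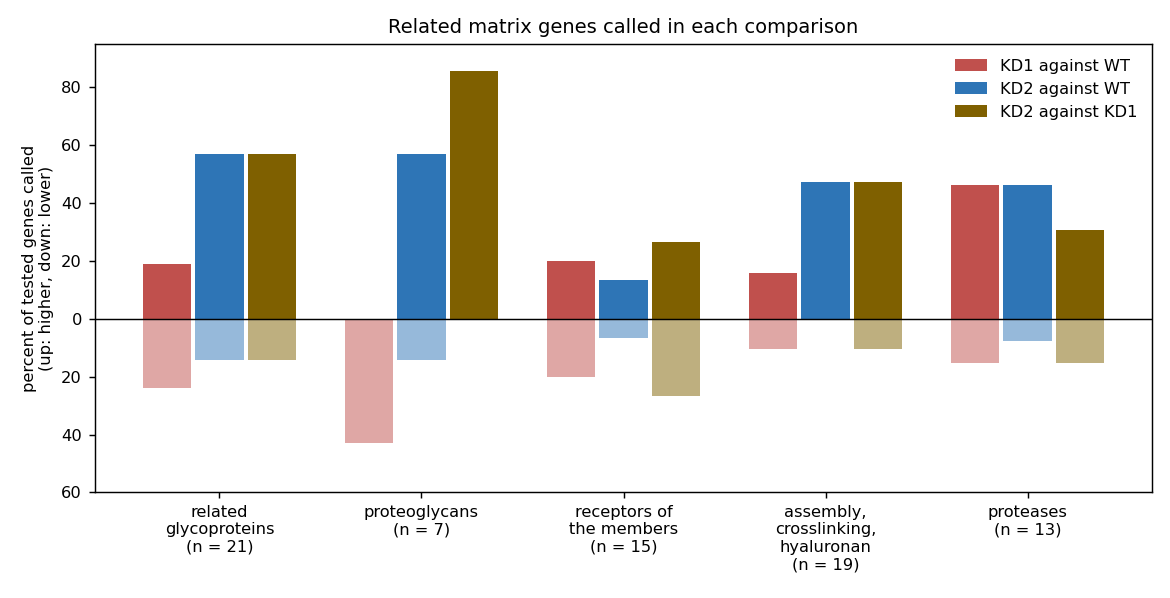
Percent of tested genes called higher (up) or lower (down) in each of the 5 groups of related genes, which hold 21, 7, 15, 19 and 13 tested genes, for the 3 comparisons. In *KD2* against *WT* 9 of 19 enzymes of matrix assembly were called higher and 0 lower, beside 14.5% and 6.71% of all genes.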

How the data were processed

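Undifferentiated HC11 cells were sequenced as 9 cultures, which the labels place 3 to a line. The values are whole-number read counts per gene, not normalized, as the authors deposited them for 55228 genes. Trimming with fastp, mapping with HISAT2 (GRCm38) and exon counting with featureCounts came first. Strand and multiple mapping are not given in the sources used here. Any read from a shared exon could be counted on the wrong gene. Libraries held 19231428 to 28360592 counts.

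The 10 genes, the gene lists and the tests were chosen with earlier results of these data known. Counts were scaled to TMM-adjusted library sizes (CPM) and tested with the quasi-likelihood test of edgeR 4.0.16 in R 4.3.3, with 1 fit of all 9 cultures, its expression filter (15253 genes) and Benjamini-Hochberg adjustment over these genes. Calls needed both an adjusted p below 0.05 and more than 1 of log2 fold change in size. A gene rose or fell where the adjusted p alone passed. The fit was tested on simulated counts. Alternatives were DESeq2 1.42.0, other scalings and filters, only the 6 cultures compared, a replicate block and each culture left out. No replicate pair was counted as 1 library. Columns without a culture numbered 0.

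From each related list, up to 2 called genes with the largest rise and up to 2 with the largest fall per comparison were eligible for naming, at a mean log2 CPM above 1. Those described were picked from them after their values were seen. For *Fn1* and *Tnc* the 3 nearest genes were named. *Apol7d*, *8030451A03Rik*, *Gm29233*, *Gm42793* and *Gm9913* were named for overlapping exons. Positions came from the GENCODE annotation and upstream sequences from RefSeq, both of GRCm38.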

Additional observations from a re-analysis of the deposited data

Results flagged for a closer look

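Differences between the *KD* lines under the same contrast with *WT* marked 4 genes. For *Fn1*, *KD2* against *KD1* gave a log2 fold change of 4.26. All 3 *KD1* cultures lay below and all 3 *KD2* cultures above every *WT* culture, and the difference was not tested because the gene was chosen for its level. For the other 3 the difference passed the quasi-likelihood test of edgeR after Benjamini-Hochberg adjustment. *Postn* differed by 3.95 (adjusted p = 2.4e-13), *Fbn1* by 3.27 (adjusted p = 7.6e-10) and *Thbs1* by 1.46 (adjusted p = 1.5e-10). *Tnc* was not marked, though its *KD1* and *KD2* cultures did not overlap and *KD2* against *KD1* gave -1.46 (not tested). Groups of 3 cultures were not tested for single outlying samples.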

How the results depend on the processing

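No log2 fold change of the 9 genes that passed the filter turned direction under any setting run. Leaving out each culture in turn gave 3 to 3 genes called of the 7 in *KD1* against *WT*, 5 to 5 in *KD2* against *WT* and 3 to 4 in *KD2* against *KD1*, and the other settings gave 2 to 3, 4 to 5 and 3 to 4. *Sparc* joined the calls of the last comparison with library size alone, with at least 10 counts in every culture and without *KD2* replicate 2. Of the related genes, 31 to 34, 38 to 41 and 45 to 49 were called when a culture was left out. With at least 10 counts in every culture, which left 53 of 75 to test, 19 (12 higher, 7 lower), 21 (19 higher, 2 lower) and 28 (22 higher, 6 lower) were called. That filter also left *Fbln2* and *Vcan* untested. The share of all genes called with it is not given here, so these counts have no background beside them. With no filter *KD2* against *WT* called 48 of 113 tested, beside 39 of 75 with the main filter, again without a share of all genes. Library size alone in place of TMM moved the median of all genes by 0.11 in *KD2* against *WT* and by 0.13 in *KD2* against *KD1*, and *Tnc* in *KD2* against *WT* ranged from 0.05 to 0.20. Same-numbered cultures did not deviate together over genes (r from -0.0652 to 0.0789). These values cannot show whether such cultures were grown or prepared together. With the replicate block 3, 5 and 3 of the 7 genes and 32, 39 and 45 related genes were called, and no call of the 7 genes changed. Depth limits *Thbs2*, *Vcan*, *Fbn1* and *Fbln2*, which had at most 47 counts in a *WT* culture. The single-clone origin of each line limits every comparison.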
